A study of Mus musculus with 10 samples.

Results

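The transcripts described here belong to the core of the canonical Wnt pathway in primary cells of the mouse cortex, before and after depolarization. The 10 genes were Ctnnb1, Apc, Axin1, Axin2, Gsk3b, the co-receptors Lrp5 and Lrp6, and the TCF/LEF factors Tcf7l1, Tcf7l2 and Lef1, and every counted Ensembl transcript annotated to them was taken. This gave 27 of the 22534 counted transcripts, from 9 of the 10 genes. No counted transcript was matched to Ctnnb1, the gene of β-catenin, and it was not analysed here. A total of 26 member transcripts were among the 15579 transcripts tested, which had means of at least 10 RNAseq reads and 10 ribosome footprints on the coding sequence (CDS). The member left out was ENSMUST00000098611 of Lef1. Of the 27, 12 transcripts of 4 genes (Axin2, Tcf7l2, Lrp6 and Gsk3b) passed the stricter filter that the study describes, an RPKM of 10 in 2 cultures.

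All cultures were grown from the cortex of newborn (P0) FVB mice for 7 days, and neurons grew in them beside glial cells. Cultures 1, 2 and 3 were left untreated, and cultures 4 and 5 received 55 mM KCl, which depolarizes cells, for 3 h. Every culture was given cycloheximide at 100 ug/ml for 7 min to hold ribosomes on their RNA. From each, 1 library of total RNA (RNAseq) and 1 of ribosome footprints (RF) were made, so the comparison rests on 3 untreated and 2 KCl cultures, and the labels do not say whether the cultures came from separate litters. The study removed a further KCl replicate for its small library. Because the cultures mix cell types, fewer cells of a type and less RNA per cell cannot be told apart.

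Wnt ligands bind a Frizzled receptor together with Lrp5 or Lrp6. Without a ligand, a complex built on the scaffolds Axin and Apc holds β-catenin, the kinase Gsk3b phosphorylates it, and it is degraded. With a ligand the complex is drawn to the receptors, β-catenin accumulates and enters the nucleus, and TCF/LEF proteins carry it to target genes. Axin2 and Lef1 are themselves well known targets of the pathway, which makes Axin2 RNA a common gauge of its activity. In the developing cortex the pathway takes part in progenitor growth, in the formation of blood vessels and in the maturation of the oligodendrocyte lineage.

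Each gene is described by its lead transcript, the one with the most RNAseq reads. The bases around the annotated ATG are shown for the 7 leads with an annotated 5′UTR outside Apc (GENCODE M21, GRCm38, sense strand of the RNA, 5′ to 3′). Where ribosomes start on these transcripts was not measured. The annotated start codon is in capitals.
Axin1, chr17:26142684-26142686, plus strand: ttgttcactgATGcaga
Axin2, chr11:108923288-108923290, plus strand: ctccctcaccATGagta
Gsk3b, chr16:38090526-38090528, plus strand: aagagccatcATGtcgg
Lrp5, chr19:3686440-3686442, minus strand: gccggacgacATGgaaa
Lrp6, chr6:134566695-134566697, minus strand: tggggggaagATGgggg
Tcf7l1, chr6:72788950-72788952, minus strand: tggccccaccATGcccc
Lef1, chr3:131111472-131111474, plus strand: agccgccgggATGcccc
A strong start context has a purine 3 bases before the ATG, and 6 of the 7 do. Axin1 had a C there and a C directly after the ATG.

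RNAseq libraries held between 3056286 and 3629959 reads. RF libraries held 7719915, 6551613 and 1463654 reads in untreated cultures 1, 2 and 3 and 1608235 and 3120710 in KCl cultures 4 and 5, so footprint values of culture 3 and culture 4 rest on the fewest reads. Fos, an immediate early gene used as a check of the stimulus, stood at 23.6, 33.0 and 29.5 units of RNAseq CPM (reads scaled to a common library size, normalized by TMM) in untreated cultures and at 94.1 and 85.6 in KCl cultures, and it rose by 1.65 ± 0.18 on the log2 scale (SE; adjusted p = 4.98e-11). Over all tested transcripts, edgeR called 2108 up and 1813 down after KCl from RNAseq reads, while from footprints it called 2760 up and 2468 down. With library totals in place of TMM these became 1482 and 2766 in RNAseq and 1738 and 3859 in RF, because that scaling moved the median log2 fold change of all tested transcripts by -0.139 in RNAseq and by -0.168 in RF. Changes below are relative to the TMM scale.

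By lead transcript, 4 of the 9 measured genes passed in RNAseq, beside 13.6% of all tested leads called higher and 12.3% called lower. Axin1, Lrp6 and Gsk3b rose, Lef1 fell, and the 5 others (Apc, Axin2, Tcf7l1, Tcf7l2 and Lrp5) did not pass the test. In footprints 3 genes rose (Axin1, Gsk3b and Apc) and none fell, beside 18.1% of all tested leads called higher and 15.8% called lower. The median log2 fold change of the 9 leads was 0.26 in RNAseq, with 7 of 9 above 0, and 0.04 in RF, with 5 of 9 above 0. By transcript, 8 of the 26 passed an adjusted p under 0.05 in RNAseq, 5 higher and 3 lower, beside 25.2% of all tested transcripts. In RF 6 of the 26 passed, all higher, beside 33.6% of all tested transcripts. The median log2 fold change of the 26 was -0.12 in RNAseq and 0.04 in RF, and that of all tested transcripts was -0.01 in both. Many of the 26 are isoforms that share reads, with 11 of them from Tcf7l2, and they are not independent of one another. The RNAseq median thus had opposite signs by transcript and by gene, and 9 genes are few to set against the background.

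**Figure D1:**
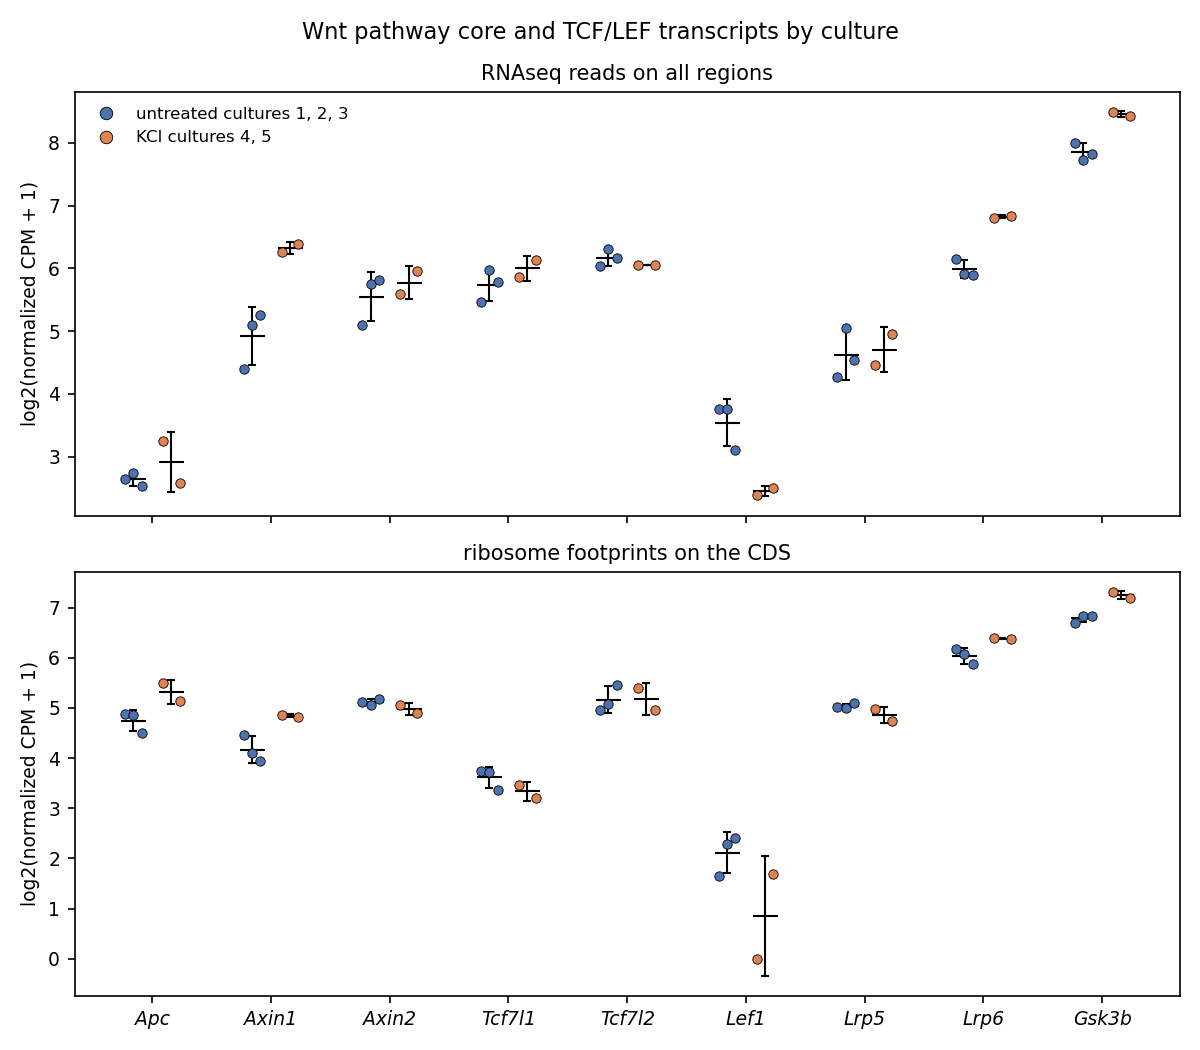
Normalized CPM, as log2(CPM + 1), of the lead transcript of each measured gene in untreated cultures 1 to 3 (blue) and KCl cultures 4 and 5 (orange), for RNAseq reads on all regions (top) and footprints on the CDS (bottom). Bars give the mean and SD of each group on this scale. RNAseq values of Axin1, Lrp6 and Gsk3b lie above all untreated cultures with KCl and those of Lef1 below.

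Axin1, the scaffold that limits how much destruction complex a cell can form, rose in RNA. Its lead ENSMUST00000074370 (chr17:26138688-26195811, 11 exons) had 69, 111 and 118 RNAseq reads in untreated cultures and 232 and 284 in KCl cultures, or 20.1, 33.3 and 37.4 against 75.8 and 83.0 normalized CPM. Both KCl cultures lay above every untreated culture. The mean went from 30.3 ± 9.06 (SD, n = 3) to 79.4 ± 5.07 (SD, n = 2). The log2 fold change was 1.40 ± 0.19 (SE; adjusted p = 3.44e-08), the call held under all 12 alternatives tried other than an exact permutation, which cannot pass 0.05 here, and the other 2 Axin1 transcripts gave 1.48 and 1.49.

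Footprints on Axin1 rose by a smaller estimate than its RNA. The difference between the assays was not called by edgeR (-0.83; adjusted p = 0.12), and it depended on untreated culture 1, as described below. The footprints stood at 21.1, 16.1 and 14.4 normalized CPM in untreated cultures and at 28.2 and 27.3 with KCl, from 20 to 158 footprints per library. The groups did not overlap. The log2 fold change was 0.62 ± 0.22 (SE; adjusted p = 0.0221). This call was near the threshold and was lost with DESeq2 (0.65; adjusted p = 0.0959), with library totals (0.45; adjusted p = 0.0967), without untreated culture 2 (0.51; adjusted p = 0.0601), without KCl culture 4 (0.61; adjusted p = 0.102) and without KCl culture 5 (0.65; adjusted p = 0.164).

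Axin2, the paralogue of Axin1 that the pathway itself induces, did not pass the test. Its single transcript ENSMUST00000052915 (chr11:108920349-108950783) stood at 33.2, 52.8 and 55.2 RNAseq CPM in untreated cultures and at 47.1 and 61.1 with KCl. The RNA groups overlapped, and untreated culture 1 was the lowest of the 5. The log2 fold change was 0.21 ± 0.19 (SE; adjusted p = 0.475) in RNAseq. Footprints were 33.6, 32.5 and 35.3 CPM against 32.5 and 28.8, so both KCl cultures lay just below the untreated ones, with a log2 fold change of -0.15 ± 0.18 (SE; adjusted p = 0.585). Whether the response of Axin2 differed from that of Axin1 was not tested.

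Gsk3b, the kinase that marks β-catenin for degradation, rose in RNA and in footprints. The lead ENSMUST00000023507 (chr16:38089001-38246084) stood at 255.8, 211.3 and 226.7 RNAseq CPM in untreated cultures and at 358.8 and 343.3 with KCl. Its footprints were 103.0, 113.1 and 112.3 CPM against 156.6 and 145.4. In both assays the KCl cultures lay above all untreated ones. The log2 fold change was 0.60 ± 0.13 (SE; adjusted p = 0.000293) in RNAseq and 0.47 ± 0.11 (SE; adjusted p = 0.00121) in RF, where the call held under all 12 alternatives of the same kind. A shorter Gsk3b transcript with a 3′UTR of 210 bases, ENSMUST00000114750, gave 0.46 in RF, called as well, and 0.30 in RNAseq (adjusted p = 0.175), not called.

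Apc, the large scaffold that binds β-catenin beside Axin, was represented by 1 short transcript, ENSMUST00000066133, with a CDS of 975 bases. Full-length Apc transcripts were not analysed here, and reads from exons that this transcript shares with them cannot be told apart. It had only 18, 19 and 15 RNAseq reads in untreated cultures and 26 and 17 with KCl, against 213, 179 and 30 footprints and 61 and 92 with KCl. The RNAseq groups overlapped, with a log2 fold change of 0.35 ± 0.42 (SE; adjusted p = 0.594). Footprints were 28.4, 28.0 and 21.6 normalized CPM against 44.0 and 34.4, with no overlap. The RF log2 fold change was 0.50 ± 0.19 (SE; adjusted p = 0.0317). The call was lost with DESeq2 (adjusted p = 0.106), library totals (0.33; adjusted p = 0.16), 1 fit of all 10 libraries (adjusted p = 0.0732), without untreated culture 3 (0.44; adjusted p = 0.0731), without KCl culture 4 (0.35; adjusted p = 0.315) and without KCl culture 5 (0.71; adjusted p = 0.0568).

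Of the co-receptors, Lrp6 rose in RNA and Lrp5 did not pass the test. The Lrp6 lead ENSMUST00000032322 (chr6:134446476-134566913) stood at 70.1, 59.4 and 58.3 RNAseq CPM in untreated cultures and at 110.8 and 113.4 with KCl, a log2 fold change of 0.84 ± 0.16 (SE; adjusted p = 2.59e-05). Its footprints were 71.5, 66.1 and 57.6 CPM against 83.0 and 81.9. They also lay above all untreated cultures, but with a log2 fold change of 0.31 ± 0.14 (SE) they did not pass (adjusted p = 0.0783). A second Lrp6 transcript, ENSMUST00000111950, annotated as retaining an intron, gave 0.66 in RNAseq (adjusted p = 0.0515), not called. Lrp5 had 18.3, 32.1 and 22.2 RNAseq CPM against 20.9 and 30.1, which overlap throughout. Its log2 fold change was 0.08 ± 0.24 (SE; adjusted p = 0.849) in RNAseq. It had the opposite sign with library totals (-0.06), without untreated culture 1 (-0.09), without KCl culture 5 (-0.21) and on 3′UTR reads alone (-1.79 ± 1.67; SE). The 3′UTR estimate rests on only 2, 0 and 4 reads in untreated cultures and 1 and 0 with KCl. Lrp5 footprints were 31.4, 31.1 and 33.1 CPM against 30.3 and 25.8. The KCl cultures lay below the untreated ones, but the log2 fold change of -0.19 ± 0.19 (SE) did not pass (adjusted p = 0.466).

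Of the 3 TCF/LEF members, Lef1 passed the test and Tcf7l1 and Tcf7l2 did not. Lef1, an activating partner of β-catenin, had few reads. The lead ENSMUST00000066849 (chr3:131110471-131224356) had 43, 42 and 24 RNAseq reads in untreated cultures and 13 and 16 with KCl, or 12.5, 12.6 and 7.61 normalized CPM against 4.25 and 4.67. Both KCl cultures lay below every untreated culture. Lef1 RNA fell by 1.29 ± 0.39 on the log2 scale (SE; adjusted p = 0.0102). The other 2 tested Lef1 transcripts, which had nearly the same reads, gave -1.26 and -1.25. The call was lost without KCl culture 4 (-1.22; adjusted p = 0.0889) and without KCl culture 5 (-1.36; adjusted p = 0.0604), and on the reads of the CDS (-1.42; adjusted p = 0.167) or the 3′UTR alone (-0.93; adjusted p = 0.273).

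Lef1 footprints were 16, 25 and 6 in untreated cultures and 0 and 6 in KCl cultures. A count of 0 in KCl culture 4 allows up to 2.17 normalized CPM (3 footprints in that library), and untreated culture 1 stood at 2.13, so a difference was not detectable at this depth (adjusted p = 0.225). Intervals and limits of this kind cover counting error only. Some markers of vessel and connective tissue cells were also lower, as were the RNAseq sums of astrocyte and oligodendrocyte lineage markers given below. The summed RNAseq level of 9 endothelial and mural markers was between 77.4 and 79.9 CPM in untreated cultures and between 56.5 and 64.3 with KCl, with 1 of its 4 tested genes lower (Pdgfrb, -1.06). Of 6 tested fibroblast and meningeal markers 3 were lower and 1 higher in RNAseq, with overlapping summed levels of 639 to 753 CPM against 577 to 651. No counted marker of either list was at 0 in all cultures. In RF the endothelial and mural sum was 130 to 176 CPM against 145 to 146, with 1 tested gene higher (Cspg4, 0.442) and 1 lower (Pdgfrb, -0.815). The fibroblast and meningeal sum in RF was 1389 to 1847 CPM against 960 to 1097, without overlap, with 3 genes lower and 1 higher. The part of these cells in the fall of Lef1 was not tested.

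Tcf7l2 and Tcf7l1, the TCF factors most often described in glia and in progenitors, did not pass the test. The Tcf7l2 lead ENSMUST00000111657 (chr19:55742342-55932195) stood at 64.6, 78.1 and 71.0 RNAseq CPM in untreated cultures and at 65.4 and 65.5 with KCl. Its footprints were 30.2, 32.7 and 43.2 CPM against 41.1 and 29.9. Groups overlapped in both assays. The log2 fold changes were -0.12 ± 0.17 (SE; adjusted p = 0.648) in RNAseq and 0.04 ± 0.19 (SE; adjusted p = 0.903) in RF, where the sign changed with library totals. All 11 Tcf7l2 transcripts lay between -0.23 and -0.12 in RNAseq and between -0.33 and 0.13 in RF, and none was called. For Tcf7l1 (ENSMUST00000069536, chr6:72626378-72789254) RNAseq gave 43.1, 61.8 and 53.9 CPM against 57.2 and 69.3, a log2 fold change of 0.26 ± 0.18 (SE; adjusted p = 0.309). Its footprints, between 13 and 93 per library, were 12.4, 12.2 and 9.36 CPM against 10.1 and 8.22. Groups overlapped in both assays, and the RF log2 fold change was -0.41 ± 0.30 (SE; adjusted p = 0.313).

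**Figure D2:**
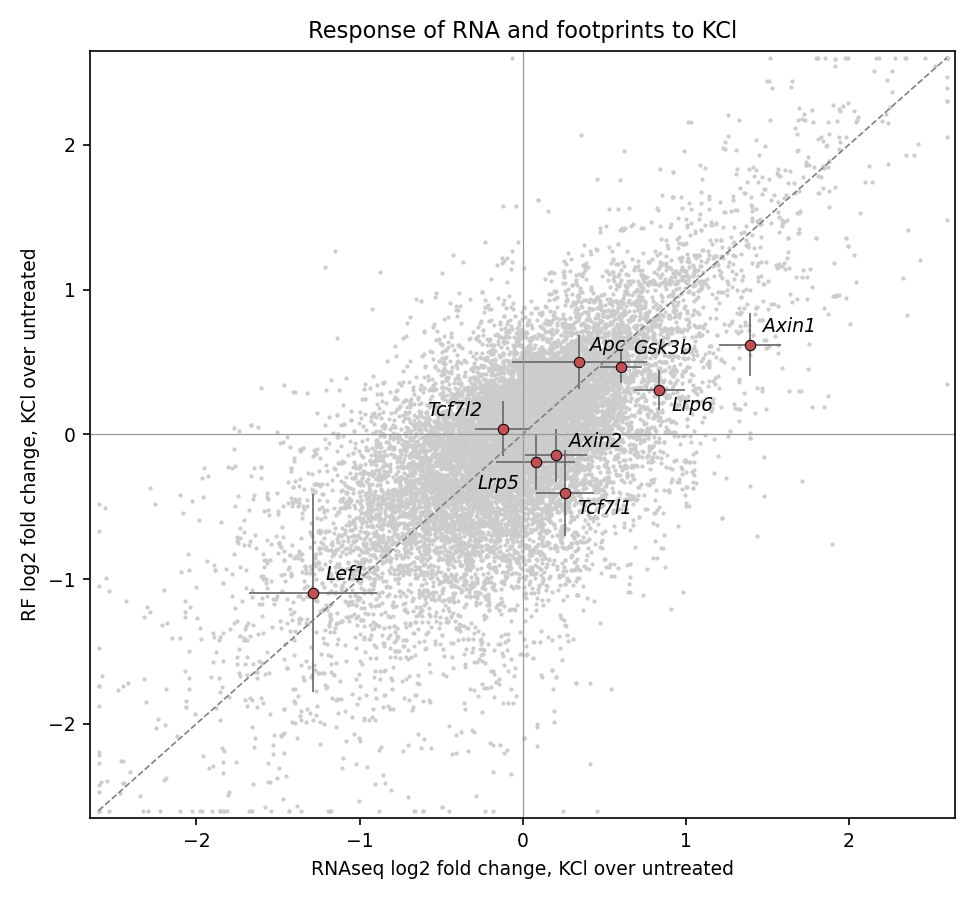
Log2 fold change of RNAseq (horizontal) against that of CDS footprints (vertical), KCl over untreated, for all 15579 tested transcripts (grey) and the 9 lead transcripts (red, bars are SE). Values beyond 2.6 are drawn at the edge and the dashed line marks equal change. Axin1 lies below the line at 1.40 and 0.62, and Lef1 at -1.29 and -1.10 close to it.

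Translation efficiency (TE), the CDS footprint RPKM over the RNAseq RPKM of the same culture, was not called changed for any of the 26 member transcripts by edgeR, beside 2.98% of all tested transcripts. At an unadjusted p under 0.05 there were 4 of 26, all of Axin1 or Lrp6, and DESeq2 called 0. The study lists a gene printed as Tcf712, read here as Tcf7l2, among autism genes within its set of changed TE. That set was taken at an unadjusted p under 0.05, with another test and another filter. Here the 11 Tcf7l2 transcripts had TE differences between -0.22 and 0.33 on the log2 scale (edgeR, lowest adjusted p = 0.67). The cause of this disagreement was not tested. Axin1 had the largest estimate among the genes whose RNA rose, a fall by 0.83 ± 0.30 on the log2 scale (SE; adjusted p = 0.12). Its TE was 1.52, 0.700 and 0.557 in untreated cultures and 0.538 and 0.476 with KCl, so the KCl cultures were lower than all untreated ones while untreated culture 1 stood far above the rest. Without that culture the Axin1 estimate was -0.37 (adjusted p = 0.608), and without untreated culture 2 it was called (-1.08; adjusted p = 0.0242), the only such setting. Lrp6 had a TE of 1.97, 2.15 and 1.91 against 1.45 and 1.40. Its groups did not overlap, but the log2 difference of -0.50 ± 0.23 (SE) was not called (adjusted p = 0.269), and with CDS reads alone as the RNA it was -0.10 (adjusted p = 0.944). Gsk3b stood at 2.65, 3.52 and 3.26 against 2.87 and 2.78, a log2 difference of -0.14 ± 0.18 (SE; adjusted p = 0.809) that changed sign with CDS reads alone (0.13).

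In untreated cultures the members differed widely in RNA per length and in TE. By RNAseq RPKM the order was Tcf7l2 (33.4 ± 3.15; SD, n = 3), Gsk3b (27.9 ± 2.72), Tcf7l1 (17.4 ± 3.10), Axin2 (11.05 ± 2.84), Axin1 (8.01 ± 2.40), Lrp6 (6.69 ± 0.70), Lrp5 (4.69 ± 1.38), Apc (4.42 ± 0.40) and Lef1 (3.21 ± 0.84). The median of the 15277 tested transcripts with an annotated CDS was 9.01. In that order Tcf7l2 and Gsk3b overlapped in their single untreated cultures, as did Axin2 and Axin1, Axin1 and Lrp6, and Lrp5 and Apc, while the other neighbours did not. By TE the order was Apc (6.02 ± 0.54), Gsk3b (3.14 ± 0.45), Lrp6 (2.01 ± 0.13), Lrp5 (1.48 ± 0.41), Axin2 (1.28 ± 0.38), Lef1 (1.07 ± 0.62), Axin1 (0.926 ± 0.520), Tcf7l2 (0.591 ± 0.117) and Tcf7l1 (0.380 ± 0.105), beside a median of 2.05. Single cultures of neighbours overlapped from Lrp5 down to Tcf7l1 and did not above Lrp5. By lead transcript, Tcf7l2 and Tcf7l1 were thus at the 5.18 and 1.93 percentiles of TE while their RNA stood at the 85.8 and 71.1 percentiles. These orders depend on the length of the transcript taken. In untreated culture 1 the Tcf7l2 lead of 2135 bases had 222 RNAseq reads, and ENSMUST00000041717 of 3590 bases had 199. The Gsk3b lead of 8303 bases had 879 reads and 772 footprints, and ENSMUST00000114750 of 1750 bases had 276 and 770. RPKM and TE of such other transcripts are not given here. The TE of Apc rests on fewer than 30 RNAseq reads per library.

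**Figure D3:**
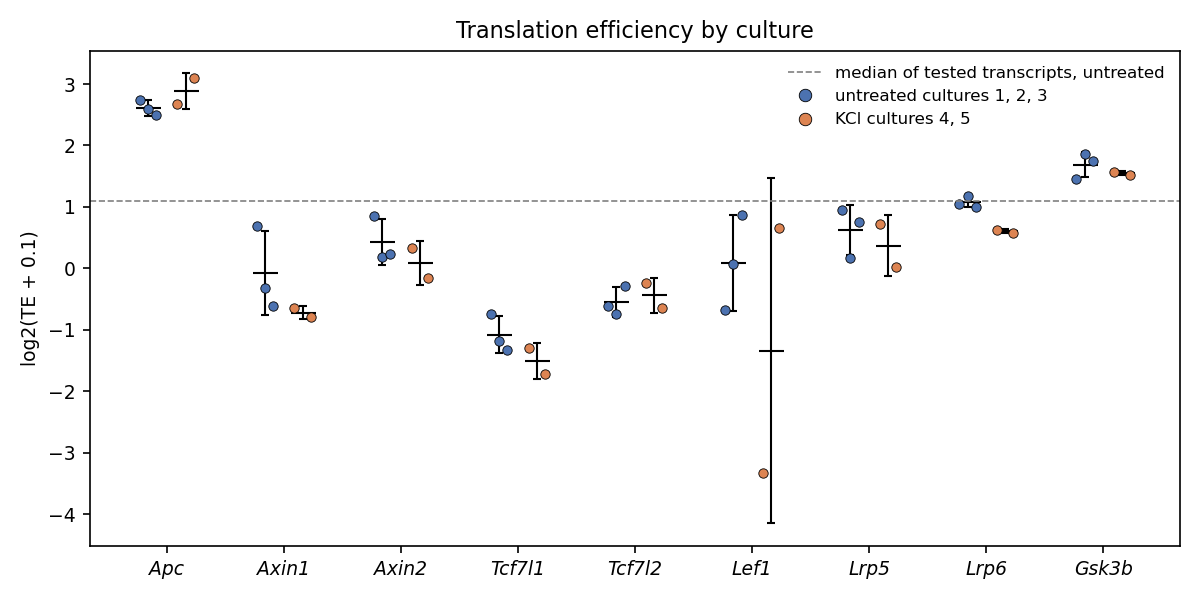
TE of each lead transcript, as log2(TE + 0.1), in untreated cultures 1 to 3 (blue) and KCl cultures 4 and 5 (orange), with group mean and SD. The dashed line is the untreated median of tested transcripts, 2.05. Tcf7l1 and Tcf7l2 lie below it in every culture, Apc and Gsk3b above it. Lef1 had 0 footprints in KCl culture 4.

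RNAseq reads were also compared between the CDS and the 3′UTR, a comparison added after the data were seen. Lrp6 had 144, 103 and 92 CDS reads in untreated cultures and 118 and 176 with KCl, but 96, 95 and 92 reads on its 3′UTR of 4310 bases against 216 and 212. The ratio of 3′UTR to CDS reads was 0.667, 0.922 and 1.00 in untreated cultures and 1.83 and 1.20 with KCl. Gsk3b had 252, 207 and 169 CDS reads against 224 and 283, and 554, 431 and 466 reads on its 3′UTR of 5515 bases against 808 and 808. Its ratio was 2.2, 2.08 and 2.76 against 3.61 and 2.86. In both genes the ratio was higher in each KCl culture than in all untreated ones. The same held in Axin2 (0.276 to 0.458 untreated, 0.646 and 0.5 with KCl) and Tcf7l1 (0.644 to 0.724 untreated, 1.22 and 0.878 with KCl). In Axin1 (0.757 to 1.42 untreated, 1.04 and 0.978 with KCl), Tcf7l2, Lef1 and Lrp5 the groups overlapped, and Apc had no 3′UTR reads. The share of all transcripts with ratios separated in this way was not computed. Over whole RNAseq libraries the 3′UTR held 49.9% to 51.2% of reads in untreated cultures and 53.3% and 51.8% with KCl. Axin1 gained reads on both regions, with 37, 43 and 47 CDS reads against 106 and 134, and 28, 61 and 60 on the 3′UTR against 110 and 131.

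Fitted on CDS reads alone, Lrp6 (0.43 ± 0.20; adjusted p = 0.143) and Gsk3b (0.34 ± 0.17; adjusted p = 0.195) lost their RNAseq calls, while Axin1 kept its call (1.55 ± 0.24; adjusted p = 6.59e-08). Fitted on 3′UTR reads alone, all 3 leads were called, at 1.15 ± 0.20 for Lrp6, 0.71 ± 0.15 for Gsk3b and 1.24 ± 0.24 for Axin1. Of the member transcripts 3 of 26 were called on CDS reads and 3 of 22 on 3′UTR reads, beside 12.9% and 17.7% of all transcripts tested in these fits. The difference between the regions was tested as an interaction of region and KCl with culture as a block. It was 0.71 ± 0.25 (SE) for Lrp6 (unadjusted p = 0.00612, adjusted p = 0.222) and 0.37 ± 0.18 for Gsk3b (unadjusted p = 0.0427, adjusted p = 0.478). It was called for 0 of 13 member transcripts by edgeR, with 2 at an unadjusted p under 0.05, beside 1.03% of all transcripts tested, and it was not run in DESeq2. Over all transcripts tested it was called higher on the 3′UTR for 48 and lower for 54, and with 1 library total for both regions for 89 and 46. Lrp6 and Gsk3b were thus called on 3′UTR reads and not on CDS reads, and the difference between their regions did not pass adjustment.

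**Figure D4:**
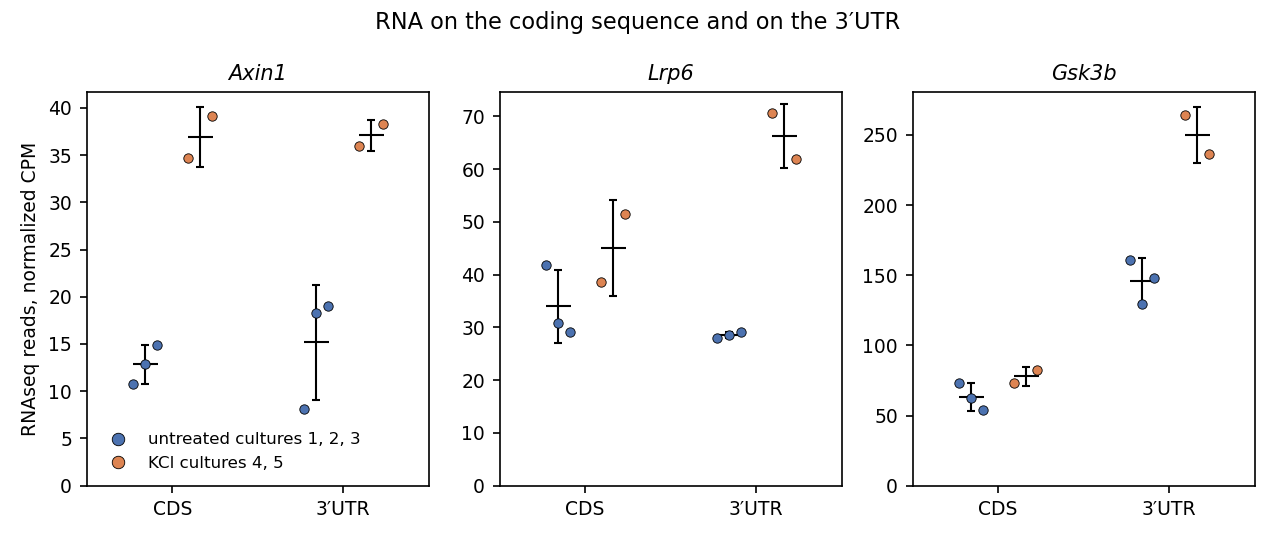
RNAseq reads on the CDS and on the 3′UTR of Axin1, Lrp6 and Gsk3b, in normalized CPM of the whole library, in untreated cultures 1 to 3 (blue) and KCl cultures 4 and 5 (orange), with group mean and SD. Each axis starts at 0. On the 3′UTR the KCl cultures lie above all untreated ones in the 3 genes, and on the CDS only those of Axin1 do so.

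Gsk3b carried many footprints ahead of its CDS. Its 5′UTR of 1525 bases holds 8 upstream ATGs, each followed in frame by a stop codon before the CDS. The median over 15213 tested transcripts with a 5′UTR was 1, and 9.02% had 5 or more. Their median 5′UTR had only 183 bases, and upstream ATGs were not compared per length. The 5′UTR of Gsk3b held 333, 213 and 82 footprints in untreated cultures and 99 and 212 with KCl, against 772, 724 and 156 and 217 and 389 on the CDS. The ratio of 5′UTR to CDS footprints was 0.431, 0.294 and 0.526 in untreated cultures and 0.456 and 0.545 with KCl, so the groups overlapped. Over all transcripts, 6.04% to 8.56% of the reads of an RF library fell on 5′UTRs, which is a share of all reads and no ratio to the CDS. The 5′UTR of Gsk3b is longer than its CDS of 1263 bases, and none of these values is per length.

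The 5′UTR footprints of Gsk3b, Lrp6 and Axin1 increased by point estimate with KCl, but 0 of 11 member transcripts were called by edgeR, with 3 at an unadjusted p under 0.05, beside 8.28% of the transcripts tested. The log2 fold changes were 0.57 ± 0.21 (SE; adjusted p = 0.0997) for Gsk3b, 1.43 ± 0.49 (SE; adjusted p = 0.073) for Lrp6 and 1.23 ± 0.44 (SE; adjusted p = 0.0877) for Axin1, the latter 2 from at most 25 footprints per library. The shorter Gsk3b transcript ENSMUST00000114750, with a 5′UTR of 238 bases, gave -0.30 ± 0.39 (SE; adjusted p = 0.712). Upstream ATGs were counted as 2 each in Apc, Axin1, Axin2 and Lrp6, 1 each in Lef1 and Lrp5, and 0 in Tcf7l1, and the Tcf7l2 lead has no 5′UTR in the annotation used here. The files nonetheless list 38, 26 and 20 footprints on its 5′UTR in untreated cultures and 9 and 15 with KCl, so its annotated lengths differ from those behind the counts, a limit its RPKM and TE above share. It was part of the 5′UTR fit, at -0.31 ± 0.45 (SE; adjusted p = 0.733).

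TCF/LEF proteins bind DNA at a core written CTTTGA. It was searched on both strands of promoters, from 250 bases before to 50 after a start site, which a RefSeq table on GRCm38.p6 gave for 6 of the 10 genes (11 promoters in all). It was found in 2 of the 11 (18.2%), near the 16% of the 32851 promoters in the table. No promoter of Apc, Axin1, Lrp5 or Lrp6 was in the table, so the called genes Axin1 and Lrp6 could not be searched. The matches lie at Gsk3b, which rose in RNAseq, and at Lef1, which fell. All of them are shown, with the reverse complement of the core in capitals and bases in the sense of the gene.
Gsk3b, chr16:38088916-38088937, plus strand: tccccgccTCAAAGagggaggg
Lef1, chr3:131156106-131156127, plus strand: atacatggTCAAAGgaaaatag
Lef1, chr3:131156166-131156187, plus strand: gtctgttcTCAAAGtcaggtct
Both Lef1 matches are in the same promoter, which lies inside the gene and not at the start of the tested transcripts at position 131110471. A match is a description of these letters and no evidence of binding.

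The rest of the pathway was taken from 7 lists, by lead transcript. Without the members they hold 107 genes, of which 64 were tested. In RNAseq 18 were higher and 8 lower with KCl, in RF 19 and 11, and in TE 1 and 4. In TE 0.84% of all tested leads were called higher and 2.17% lower, and the shares for RNAseq and RF stand above. Their median log2 fold change was 0.08 in RNAseq and 0.08 in RF. Of these, 38 genes passed in RNAseq, RF or TE with KCl and untreated cultures that did not overlap in that readout. The share of all tested leads that did so in any of these readouts was not computed. The count of 38 thus has no background to be set against. The 20 of these 38 genes with the largest changes are named below, besides the tested target genes.

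The list of other destruction complex genes holds parts of the complex and also genes that act on it, such as Rnf146. Its genes called in RNAseq or RF were all higher. Of 13 tested genes 6 were higher in RNAseq and 5 in RF, and none was lower in either. Of all tested leads, 13.6% were called higher in RNAseq and 18.1% in RF. Csnk1d, a casein kinase, went from 187 ± 9.68 (SD, n = 3) to 367 ± 20.5 RNAseq CPM (SD, n = 2), a log2 fold change of 0.97 ± 0.13 (SE; adjusted p = 1.67e-08), and by 0.42 in RF. Amer1, which tethers Apc to the membrane, rose by 0.72 ± 0.27 in RNAseq and 0.86 ± 0.27 in RF. Rnf146, the ubiquitin ligase that degrades Axin, was higher in RNAseq at 11.6, 9.61 and 12.7 CPM against 17.97 and 27.2 (1.00 ± 0.27; adjusted p = 0.00396) and had a lower TE (-1.18 ± 0.33; adjusted p = 0.0201).

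Ligands and receptors changed in both directions. Of 6 tested ligand and secretion genes 2 were lower in RNAseq and none higher. Wnt7a, a ligand for which vessels of the brain are a known target, was at 22.7, 42.0 and 30.1 CPM in untreated cultures and at 9.80 and 7.60 with KCl (-1.86 ± 0.28; adjusted p = 4.86e-07), and its footprints fell by 1.42 ± 0.35. Wnt9a fell by 1.67 ± 0.31 in RNAseq, with an RF estimate of -0.29 that did not pass. Its RNAseq level went from 21.5, 19.2 and 35.5 CPM to 4.90 and 10.8. Of 14 tested receptor and Dishevelled genes 2 rose and 2 fell in RNAseq, and 3 rose and 3 fell in RF. The Frizzled receptors differed among themselves. Fzd5 rose by 1.67 ± 0.23 in RNAseq and 1.73 ± 0.41 in RF, and Fzd8 by 1.02 ± 0.30 and 0.59 ± 0.21. Fzd10 fell by 2.19 ± 0.49 and 2.01 ± 0.56, from 8.57 to 1.84 mean RNAseq CPM. Fzd6 fell by 1.22 ± 0.21 in RF, with an RNAseq estimate of -0.20 that did not pass. Ryk, an atypical tyrosine kinase receptor of Wnt ligands, stood at 71.6 untreated and 72.1 KCl mean RNAseq CPM (adjusted p = 0.972) but fell in RF by 1.12 ± 0.29 and in TE by 1.11 ± 0.34 (adjusted p = 0.0448).

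Inhibitors were mostly not called in RNA. Of 5 tested secreted inhibitors 1 was higher in RNAseq, and 2 were higher and 1 lower in RF. Of 7 tested intracellular inhibitors 1 was higher in RNAseq and none was called in RF. Nuclear partners split, with 4 of 13 up and 2 down in RNAseq, and 4 up and 5 down in RF. Tcf7, the remaining TCF/LEF family member, fell by 0.90 ± 0.22 in RNAseq (39.0, 36.9 and 40.9 against 18.3 and 23.4 CPM; adjusted p = 0.00116) and by 1.55 ± 0.44 in RF. Pygo1, a coactivator that binds the β-catenin complex, fell by 0.83 ± 0.21 and 1.26 ± 0.38. Tle4, a Groucho corepressor, rose by 1.25 ± 0.18 in RNAseq and 1.00 ± 0.18 in RF, and the acetyltransferase Ep300 by 0.90 ± 0.14 and 0.81 ± 0.12. Bcl9l, a coactivator, rose by 0.88 ± 0.17 in RNAseq and had a lower TE (-0.85 ± 0.26; adjusted p = 0.0448).

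Known target genes were called in both directions. Of 11 tested, Axin2 and Lef1 included, 4 rose and 3 fell in RNAseq, and 4 rose and 2 fell in RF. Those that rose in both were Ccn2 (1.94 ± 0.16 in RNAseq, 2.25 ± 0.12 in RF), Ccn1 (1.46 ± 0.13 and 1.36 ± 0.08), Myc (1.00 ± 0.15 and 1.13 ± 0.13) and Jun (0.67 ± 0.14 and 1.44 ± 0.10), the last with a higher TE (0.74 ± 0.18; adjusted p = 0.00508). All 4 are also known as early response genes to growth factors or stress. Ccnd1, a cyclin of the G1 phase, fell by 0.53 ± 0.16 in RNAseq and 0.45 ± 0.14 in RF, and Ccn4 by 1.88 ± 0.49 in RNAseq. Ccn4 had few reads, at 10.5, 8.41 and 5.07 RNAseq CPM against 1.63 and 2.63. In KCl cultures 4 and 5, 3 RNAseq reads make 0.98 and 0.877 CPM. The other tested targets did not pass in RNAseq, at 0.21 for Axin2, 0.26 for Nkd1, -0.35 for Znrf3 and -0.48 for Apcdd1. Apcdd1 fell by 0.60 ± 0.19 in RF (adjusted p = 0.0108).

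**Figure D5:**
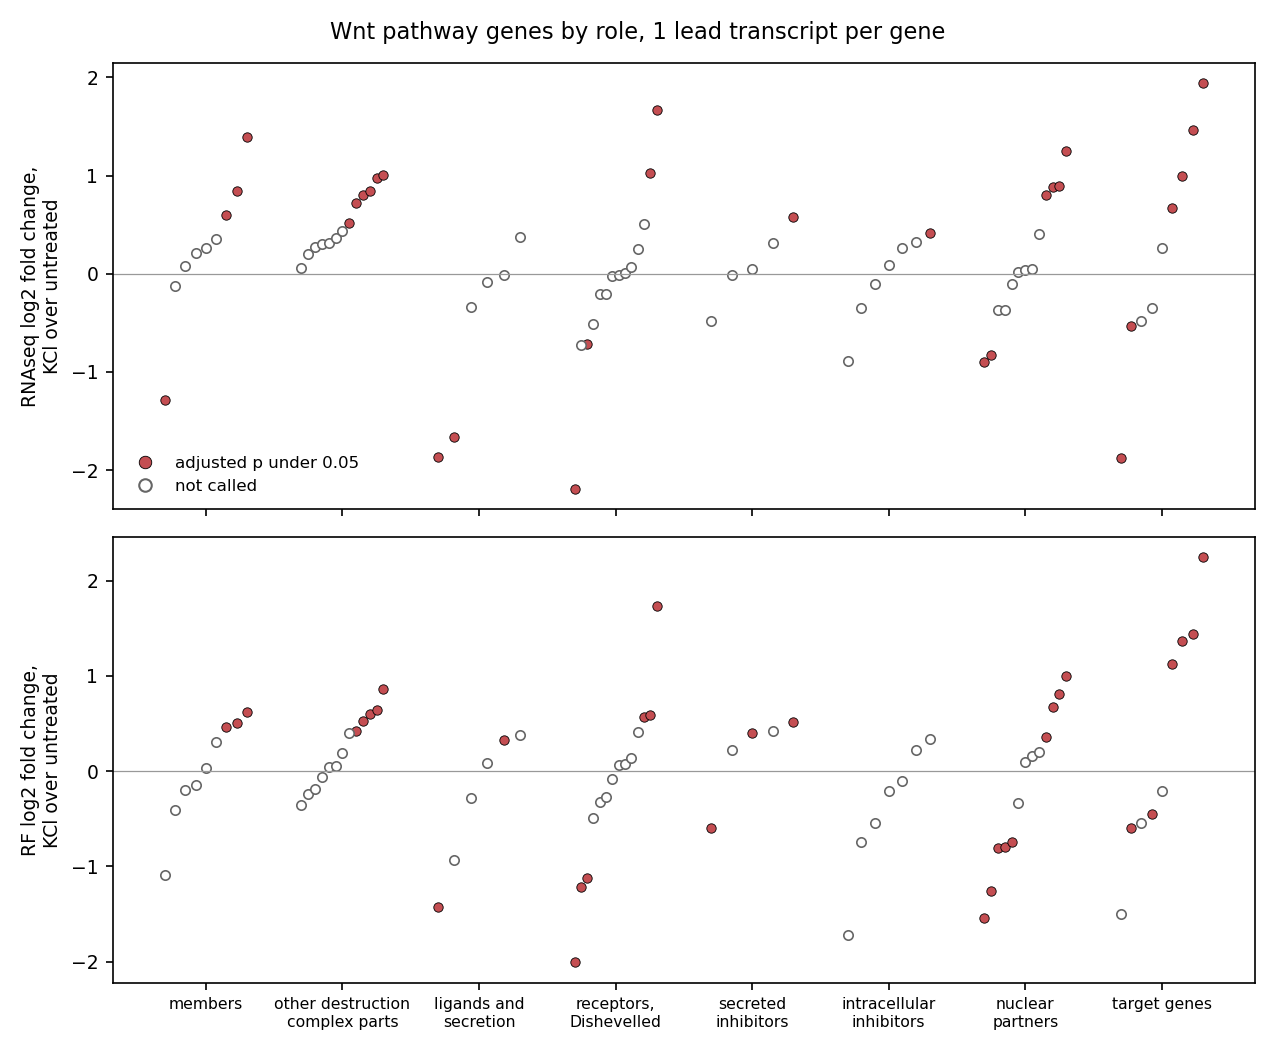
Log2 fold change, KCl over untreated, of the lead transcript of each tested gene by role, in RNAseq (top) and RF (bottom). Red points passed an adjusted p under 0.05 and open points did not. The members are left out of the other columns. A gene in more than 1 list is drawn in each. The column of other destruction complex parts also holds genes that act on the complex, such as Rnf146. Its called genes lie above 0 in both panels, while those of the receptors, nuclear partners and target genes lie on both sides.

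Several of these calls were lost under an alternative. On CDS reads alone the RNAseq calls of Amer1 (0.77), Wnt7a (-1.21), Wnt9a (-2.70), Fzd5 (0.52), Fzd8 (0.79), Fzd10 (-1.16), Tcf7 (-0.63), Ccn4 (-5.02) and Jun (0.36) were lost, and on 3′UTR reads alone those of Amer1 (0.66) and Rnf146 (1.37). Without KCl culture 4 the RNAseq calls of Amer1 (0.69), Tcf7 (-0.73) and Ccn4 (-1.59) were lost, and without KCl culture 5 those of Amer1 (0.75), Rnf146 (0.67), Fzd8 (0.61) and Pygo1 (-0.55). Amer1 (0.55) was also lost without untreated culture 2, and Amer1 (0.59) and Fzd8 (0.88) without untreated culture 3. In RF, Amer1 (0.86) and Fzd8 (0.56) were lost without KCl culture 4, Csnk1d (0.36), Amer1 (0.87), Fzd8 (0.64), Fzd10 (-2.05), Ryk (-1.19), Tcf7 (-1.15) and Pygo1 (-0.99) without KCl culture 5, and Pygo1 (-1.05) without untreated culture 1. Each of the 4 TE calls was lost without KCl culture 4, where the log2 differences were -1.45 for Rnf146, -1.10 for Ryk, -0.71 for Bcl9l and 0.73 for Jun, and without KCl culture 5, where they were -0.82, -1.12, -1.03 and 0.76. The TE call was also lost for Ryk (-1.05) and Bcl9l (-0.59) without untreated culture 1, for Ryk (-0.998) without untreated culture 2, and for Bcl9l (-0.85) and Jun (0.65) without untreated culture 3. DESeq2 did not call the RNAseq change of Amer1 (0.72), the RF changes of Amer1 (0.89), Fzd8 (0.61), Tcf7 (-1.49) and Pygo1 (-1.21), or the TE changes of Rnf146 (-1.16), Ryk (-1.08) and Bcl9l (-0.86). With library totals the RNAseq call of Amer1 (0.58) and the RF calls of Csnk1d (0.25) and Fzd8 (0.43) were lost.

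The cell types in the cultures were read from fixed marker lists. The summed RNAseq level of 8 counted astrocyte markers was between 9959 and 10876 CPM in untreated cultures and between 8963 and 9203 with KCl, and that of 9 neuron markers between 439 and 590 and between 577 and 580. In RNAseq none of the 8 tested neuron markers was called, while 2 of 8 astrocyte, 1 of 9 oligodendrocyte lineage and 2 of 8 microglia markers were lower and none was higher. Oligodendrocyte lineage markers summed to 1254 to 1354 CPM against 1231 to 1233, and microglia markers to 246 to 275 against 233 to 252. In RF the sums of all 4 lists were higher with KCl, without overlap, at 14521 to 15034 CPM against 16618 to 16815 for astrocytes, 350 to 504 against 530 to 568 for neurons, 991 to 1102 against 1140 to 1228 for the oligodendrocyte lineage and 370 to 402 against 440 to 485 for microglia. Called higher in RF were 6 of 8 tested astrocyte, 2 of 8 neuron, 3 of 9 oligodendrocyte lineage and 4 of 8 microglia markers. Called lower in RF were 2 microglia markers. Of all tested leads, 18.1% were called higher in RF and 15.8% lower. In TE 2 astrocyte markers were called higher. No counted marker of these 4 lists was at 0 in all cultures, and their part in the changes above was not tested.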

How the data were processed

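RNAseq and RF libraries of 5 primary cortical cultures (3 untreated, 2 KCl) were grouped and numbered from the labels. The authors trimmed reads with Trimmomatic 0.32, removed rRNA with STAR 2.3.1z8, mapped to the mm10 transcriptome by Bowtie2 2.2.2, retained multi-mapping reads and counted them per transcript region with bedtools 2.20.1. The deposited values are raw read counts per transcript and region letter, without normalization. Letters were read as 5′UTR (a), CDS (b) and 3′UTR (d) by correlating each letter's reads with annotated lengths, and letter c was left unnamed. Because multi-mapping reads were retained, isoforms share reads. Use of strand in counting is not given in the sources used here.

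Of 22534 transcripts, 22177 (98.4%) were matched to GENCODE M21 (GRCm38), whose lengths may differ from those the authors used. The tested set had means of at least 10 RNAseq reads and at least 10 CDS footprints over the 5 libraries of each assay. This filter was used in place of the study's RPKM filter, which can be passed through the 2 KCl cultures alone. RNAseq (all regions) and RF (CDS) were fitted in edgeR 4.0.16 (R 4.3.3) by its quasi-likelihood F test, two-sided, with TMM within each assay and Benjamini-Hochberg adjustment over all tested transcripts. TE was the interaction of assay and KCl with culture as a replicate block, since both libraries of a number come from 1 lysate, although deviations of same-numbered libraries correlated only between -0.044 and 0.023. The SE is the absolute log2 fold change over the square root of F, an approximation. Fits were tested on simulated counts. Tables and figures were made in Python 3.11.15 with pandas 2.3.3 and matplotlib 3.10.9.

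Genes were named by a fixed rule, the members, the tested target genes and up to 20 pathway genes with adjusted p under 0.05 and separated groups, by largest change. Cyr61, Ctgf and Wisp1 were looked up as Ccn1, Ccn2 and Ccn4. The members and lists were chosen with earlier results of these data known. Alternatives were DESeq2 1.42.0, library totals, other filters, 1 transcript per gene, a joint fit, region reads and leaving out each culture. P-values measure the spread between these cultures. The 3′UTR and 5′UTR fits were added after the data were seen.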

Additional observations from a re-analysis of the deposited data

How the results depend on the processing

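Counts of called transcripts (3921 in RNAseq, 5228 in RF, 465 in TE, with 8, 6 and 0 member transcripts) moved by more than 1.5 times under some alternatives. In RNAseq the study's RPKM filter gave 2410 (2 members), a mean of at least 100 reads 2031 (2 members), 1 transcript per gene 2362 (4 members), CDS reads 2005 (3 members) and 3′UTR reads 2613 (3 members). In RF, DESeq2 gave 3266 (2 members), the RPKM filter 2973 (2 members), at least 100 reads 2661 (2 members), 1 transcript per gene 3114 (3 members), and library totals 2 members. In TE, DESeq2 gave 173, 1 transcript per gene 296 and CDS reads 275. The filters and 1 transcript per gene test fewer transcripts by construction, and otherwise the cause was not tested. Leaving out 1 culture gave 2345 to 4221 calls in RNAseq (5 to 8 members), 2534 to 5541 in RF (2 to 6 members), 52 to 609 in TE (0 to 1 members), 28 to 149 for 3′UTR against CDS RNA (102 with all cultures, 0 members throughout) and 84 to 636 for 5′UTR footprints (470 with all cultures, 0 to 1 members). Without the replicate block, 411 TE calls were made (0 members), and no member's TE call changed.

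Over the 9 lead transcripts, 3 readouts and all alternatives but the permutation, 293 values held direction and call, 17 lost a call, 1 gained one and 15 changed sign, all of these in values that had not passed. In RNAseq the sign changed for Lrp5 (-0.056 with library totals, -1.79 from at most 4 reads per library on the 3′UTR, from -0.21 to 0.34 with 1 culture left out) and Apc (from -0.076 to 0.69 with 1 culture left out). In RF it changed for Tcf7l2 (-0.13 with library totals, -0.025 with the RPKM filter, -0.062 at 100 reads, from -0.17 to 0.29 with 1 culture left out). In TE it changed for Gsk3b (0.13 on CDS reads) and, with 1 culture left out, for Lef1 (from -5.14 to 0.81), Tcf7l2 (from -0.076 to 0.39) and Lrp5 (from -0.63 to 0.13). The exact permutation of 3 against 2 cultures has 10 splits and cannot go below p = 0.1, reached by 4 of 9 leads in RNAseq, 3 in RF and 1 in TE, so it can call nothing. It turned Lef1 TE to -2.98, where 1 library has 0 footprints. The shallowest RF libraries held few footprints of some members, such as 20 on Axin1 and 6 on Lef1 in untreated culture 3.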

Other observations

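Of the 87 pathway genes outside the members that were counted, 23 lay below the tested minimum by their lead transcript. Among them were the ligands Wnt1 (0 to 2 RNAseq reads per library), Wnt10a (0 to 2), Wnt3 (0 to 5), Wnt2b (1 to 5), Wnt6 (0 to 9), Wnt11 (4 to 12), Wnt5b (5 to 15), Wnt2 (5 to 16) and Wnt8b (1 to 20). The secreted inhibitors Sost and Wif1 had 0 to 1 RNAseq reads per library and Dkk2 had 0 to 2. The R-spondin Rspo1 had 14 to 31 RNAseq reads but at most 3 CDS footprints per library, while Rspo2 had 1 to 13 reads and 7 to 27 footprints. The target gene Sp5 had 9 to 25 reads and 2 to 13 footprints. These genes were named after their values were seen, and no comparison was made with them.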
